A study of Mus musculus with 2 samples.

Results

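The E2F transcription factors and the RB pocket proteins were examined in E14, an established line of mouse embryonic stem cells. The set holds 10 genes of the 50508 in the deposited table, matched by symbol: E2f1, E2f2, E2f3, E2f4, E2f5, E2f6, E2f8, Rb1, Rbl1 and Rbl2. All 10 had a mean level of at least 1 FPKM (fragments normalised by transcript length and library size) over both libraries. The cells, of strain 129/Ola and passages 15 to 18, grew on gelatin in 15% serum with 1000 U/ml of LIF, the cytokine that sustains self-renewal. One group received a scramble siRNA and the other an siRNA against Mettl8 with a lipid reagent, and RNA was taken after 72 h. Each group is 1 library, so no value has a replicate error, and while the series' design text speaks of triplicates, whether a library pools several cultures is not given in the sources used here. The study's title relates Mettl8, a STAT3 target, to differentiation and JNK signalling.

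E2F proteins bind DNA at the promoters of genes needed for DNA replication and division. E2F1 to E2F6 do so as partners of a DP protein, while E2F7 and E2F8 bind without one. The pocket proteins, RB (Rb1), p107 (Rbl1) and p130 (Rbl2), bind E2Fs and silence their targets until cyclin-dependent kinases phosphorylate them. Mouse embryonic stem cells are known for a short G1 phase in which pocket proteins are largely held in the phosphorylated form. Transcript levels carry no measure of that phosphorylation.

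The targeted gene went against its label. Mettl8 stood at 0.67 FPKM under the scramble label and at 100.3 FPKM under the Mettl8 label, where a knockdown would lower it. Each direction below is therefore that of a labelled library and not of a loss of Mettl8. The 8 pluripotent stem cell markers summed to 1325 and 1291 FPKM, from 43.5 (Utf1) upward in the first library and from 36.9 upward in the second. Of these, 7 stood lower and 1, Pou5f1, higher in the library labelled Mettl8 siRNA, where 45% of all 13243 genes with a mean of at least 1 FPKM stood lower. The counting interval of the ratio lay below 1 for 5 of the 8, against 8.76% of protein-coding genes, the lowest ratios being 0.850 (0.788 to 0.916) for Utf1 and 0.905 (0.871 to 0.940) for Sox2. Their median log2(FPKM + 1) difference was -0.048, and 0.044 after rescaling both libraries to equal FPKM sums. Under that rescaling 214 protein-coding genes lay below 1 in place of 873, and the marker intervals were not counted. The markers averaged 40.2 FPKM or more, and intervals narrow with more reads, so the 2 shares are not of like genes. Among the 5 markers, Tdgf1 lay below 1 at a ratio of 0.969 (0.941 to 0.998). The part of the markers in the results below was not tested. Of 12 fibroblast markers, 1 (Vim, at 17.2 and 18.9 FPKM) reached a mean of 1 FPKM, and of 12 lineage markers 3 did (Pax6, Nes and Neurod1), each below 3 FPKM.

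The coding sequences show how the family divides. A stretch for arginine, arginine, any residue, tyrosine, aspartate and isoleucine, then any 2 residues, valine and leucine, part of the E2F DNA-binding fold, was searched in the longest GENCODE M21 coding sequence of 21551 genes. It was found in 8 genes, which were E2f1 to E2f8. In 2 of these, E2f7 and E2f8, it occurred 2 times, and these proteins are known to hold a pair of DNA-binding domains. The codons are shown 5′ to 3′ on the gene's own strand because they are what the E2F genes share, with the arginine pair and the tyrosine and aspartate codons in capitals.
E2f1: CGGCGCatcTATGACatcaccaatgtcctg
E2f2: CGGCGCatcTATGACatcaccaacgtgctg
E2f3: AGGAGGattTACGACatcaccaacgtgctg
E2f4: CGGCGGatcTACGACatcaccaacgtgctg
E2f5: CGAAGAattTATGATatcaccaatgtctta
E2f6: AGGCGAgtgTATGACatcaccaatgtcttg
E2f8, first copy: CGGCGGattTATGACattgtgaatgtccta
E2f8, second copy: AGGAGGctgTATGACattgctaatgtcctg
On GRCm38 the E2f4 stretch lies in exon 2 at chr8:105298311-105298340 (plus strand), and the 2 copies of E2f8 in exons 5 and 7 at chr7:48875731-48875760 and chr7:48873360-48873389 (minus strand).

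A second stretch marks the E2Fs that pocket proteins bind. The pattern was glutamate, glycine, then isoleucine, valine or leucine, any residue, and aspartate, leucine, phenylalanine and aspartate, which belongs to the pocket-binding end of E2F proteins. It was found in 5 of the 21551 genes, E2f1 to E2f5. E2f6 and E2f8 had no match in their longest coding sequence, of 272 and 860 codons. Both patterns were written with these genes in view, and the second was reworded after earlier forms had been tried, so which genes they match is a description and no test. The codons are shown because they separate the E2Fs that RB family proteins bind from the others, with the last 4 in capitals.
E2f1: gagggcattagaGATCTCTTTGAC
E2f2: gaaggcatcagtGACCTCTTCGAC
E2f3: gagggcatcagtGACCTCTTCGAT
E2f4: gaaggtgtctgtGATCTCTTTGAT
E2f5: gaaggagtttgtGATCTGTTTGAT
The stretch of E2f4 lies in exon 10 at chr8:105304644-105304667 (plus strand), and that of E2f1 in exon 7 at chr2:154560724-154560747 (minus strand).

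The genes of this set had close to equal levels in both libraries. Of the 10, 5 stood higher and 5 lower in the library labelled Mettl8 siRNA, where 54.1% of all 13243 genes with a mean of at least 1 FPKM stood higher and 45% lower. E2f2, E2f6 and Rbl1, all lower, stood higher after rescaling both libraries to equal FPKM sums. In RNA of a whole culture, fewer cells of a type and less RNA per cell cannot be told apart. None of the 10 differed by 2-fold or by 1.5-fold on the log2(FPKM + 1) scale (0 of 10), against 0.642% and 2.11% of all genes. Of the 9965 protein-coding genes at this level, 2 and 10 did, so 0 of 10 does not set these genes apart. The differences of the set ran from -0.12 (Rb1) to 0.14 (E2f4) with a median of 0.0092, against a median of 0.013 over all genes. That median was -0.010 with the median ratio of all genes of at least 5 FPKM set to 1, -0.0060 with rebuilt reads scaled to the protein-coding total and 0.083 with equal FPKM sums, so it has no stable sign. The counting interval of the ratio between libraries excluded 1 for E2f4 alone, 1 gene of 10, while it did so for 22.5% of the 9965 protein-coding genes at this level. That interval leaves out the spread between cultures, which was not measured.

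**Figure D1:**
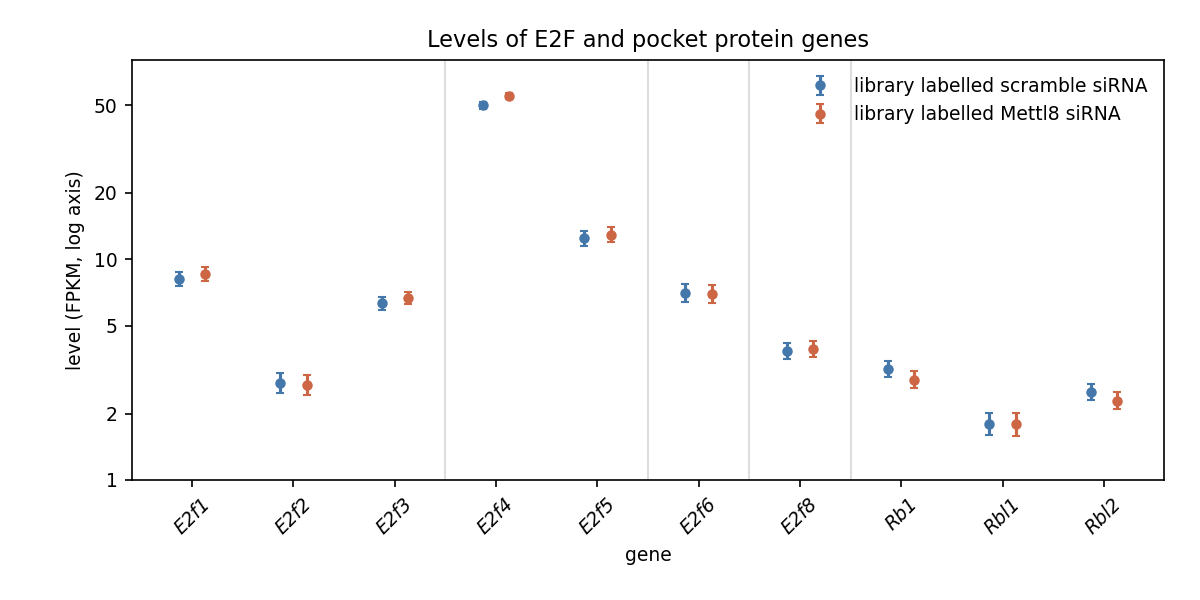
Level of each E2F and pocket protein gene in FPKM on a log axis, with the library labelled scramble siRNA in blue and the library labelled Mettl8 siRNA in orange. Bars are exact 95% Poisson intervals and grey lines separate the roles; E2f4 stands at 49.9 and 55.2 FPKM and the pocket protein genes lie between 1.79 and 3.19.

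E2f4 was by far the most abundant of the set. E2F4 is the main E2F of resting and early G1 cells, where it carries p107 or p130 to promoters and represses them. Its level was 49.9 FPKM (48.2 to 51.5, the 95% counting interval) under the scramble label and 55.2 FPKM (53.4 to 57.0) under the Mettl8 label, from 3479 and 3763 rebuilt reads. The second library was the higher, by a ratio of 1.11 (1.06 to 1.16), and 82.6% of measured protein-coding genes had a smaller difference in size. The ratio was 1.09 (1.04 to 1.14) with the median ratio set to 1, and 1.18 (1.13 to 1.24) with equal FPKM sums. E2f4 ranked 406 and 375 among protein-coding genes in level. It alone made up 55.2% and 56.9% of the summed FPKM of the 7 E2F genes.

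E2f5 encodes the close relative of E2F4, which is also bound by pocket proteins. It was second in both libraries, at 12.4 FPKM (11.5 to 13.5) and 12.9 FPKM (11.9 to 14.0), a ratio of 1.04 (0.928 to 1.16). Within a library E2f4 exceeded E2f5 4.01-fold (3.68 to 4.37) and 4.27-fold (3.93 to 4.65). The 2 genes together held 68.9% and 70.3% of the E2F sum.

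The activator E2Fs, which are bound by RB and drive entry into S phase when released, differed among themselves. Of these, E2f1 alone came next after E2f5 in both libraries, while E2f3 and E2f2 stood below E2f6. E2f1 was 8.12 FPKM (7.54 to 8.73) and 8.57 FPKM (7.97 to 9.21). E2f3 was 6.32 FPKM (5.90 to 6.75) and 6.68 FPKM (6.25 to 7.14). E2f2 was 2.76 FPKM (2.49 to 3.05) and 2.69 FPKM (2.42 to 2.98). E2f1 and E2f3 were slightly higher in the library labelled Mettl8 siRNA and E2f2 slightly lower, but each pair of intervals overlapped. The ratios were 1.06 (0.952 to 1.17) for E2f1, 1.06 (0.962 to 1.16) for E2f3 and 0.975 (0.843 to 1.13) for E2f2. E2f1 exceeded E2f2 2.94-fold (2.60 to 3.34) and 3.19-fold (2.81 to 3.62) within a library, beyond counting error in each. The activators summed to 17.2 and 17.9 FPKM, or 19.0% and 18.5% of the E2F sum, and the pocket-bound repressors E2f4 and E2f5 exceeded them 3.62-fold and 3.79-fold.

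E2f6 and E2f8 repress without pocket proteins. E2F6 acts as part of the Polycomb complex PRC1.6, which silences germline genes, and was 7.04 FPKM (6.43 to 7.69) and 6.96 FPKM (6.35 to 7.62), a ratio of 0.989 (0.870 to 1.13). E2F8, an atypical E2F that limits E2F1 activity late in S phase, was 3.84 FPKM (3.54 to 4.16) and 3.92 FPKM (3.61 to 4.25), a ratio of 1.02 (0.909 to 1.14). Both genes thus had overlapping levels in the 2 libraries. E2f7, which encodes the other atypical E2F and lies outside the set, was 0.35 and 0.32 FPKM, so that E2f8 exceeded it 10.97-fold (8.75 to 13.8) and 12.3-fold (9.70 to 15.7).

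The pocket protein genes held 3 of the 4 lowest levels of the set. Rb1, the gene of the retinoblastoma protein, was 3.19 FPKM (2.93 to 3.47) under the scramble label and 2.85 FPKM (2.60 to 3.12) under the Mettl8 label. Rbl2, the gene of p130, was 2.50 FPKM (2.29 to 2.72) and 2.29 FPKM (2.09 to 2.50). Rbl1, the gene of p107 and itself known as an E2F target, was 1.80 FPKM (1.60 to 2.01) and 1.79 FPKM (1.59 to 2.00). All 3 values were lower in the library labelled Mettl8 siRNA, though Rbl1 was nearly equal in both and stood higher after rescaling both libraries to equal FPKM sums. The intervals of the ratio included 1 for Rb1 (0.893, 0.789 to 1.01), Rbl2 (0.916, 0.807 to 1.04) and Rbl1 (0.994, 0.844 to 1.17). Rb1 and Rbl2 stayed lower under both rescalings, and with the median ratio set to 1 the interval of Rb1 lay below 1 (0.877, 0.774 to 0.994). Rb1 held 42.6% and 41.1% of the summed pocket protein FPKM, Rbl2 33.4% and 33.0%, and Rbl1 24.0% and 25.8%.

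**Figure D2:**
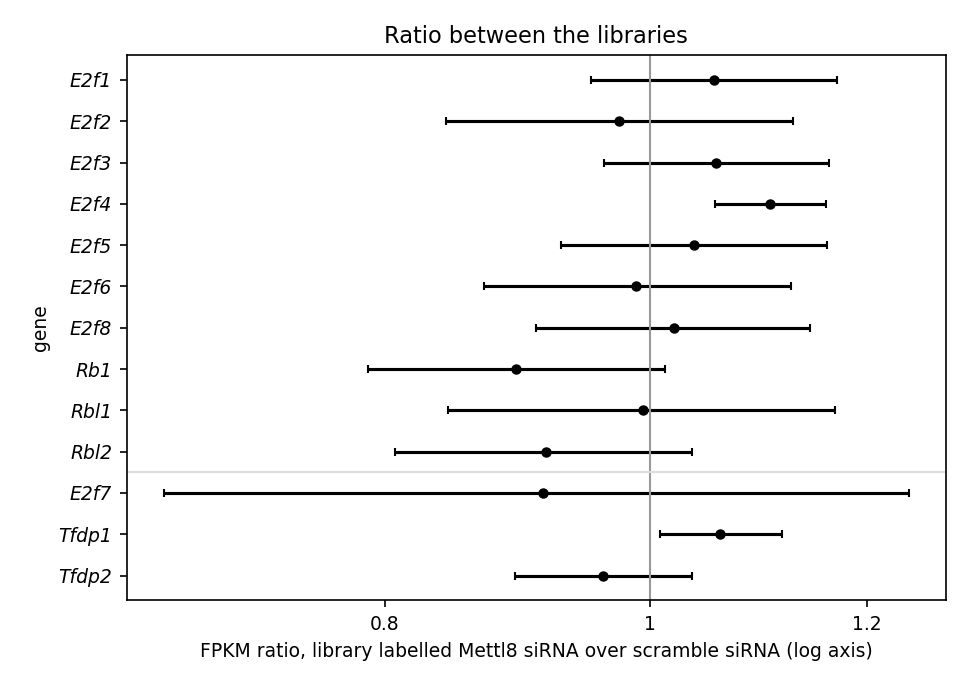
Ratio of FPKM, library labelled Mettl8 siRNA over library labelled scramble siRNA, on a log axis for the 10 genes and, under the grey line, for E2f7 and the DP genes Tfdp1 and Tfdp2. Bars are exact 95% intervals of counting error; they lie above 1 for E2f4 (1.06 to 1.16) and Tfdp1 (1.01 to 1.12) and include 1 for the others.

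**Figure D3:**
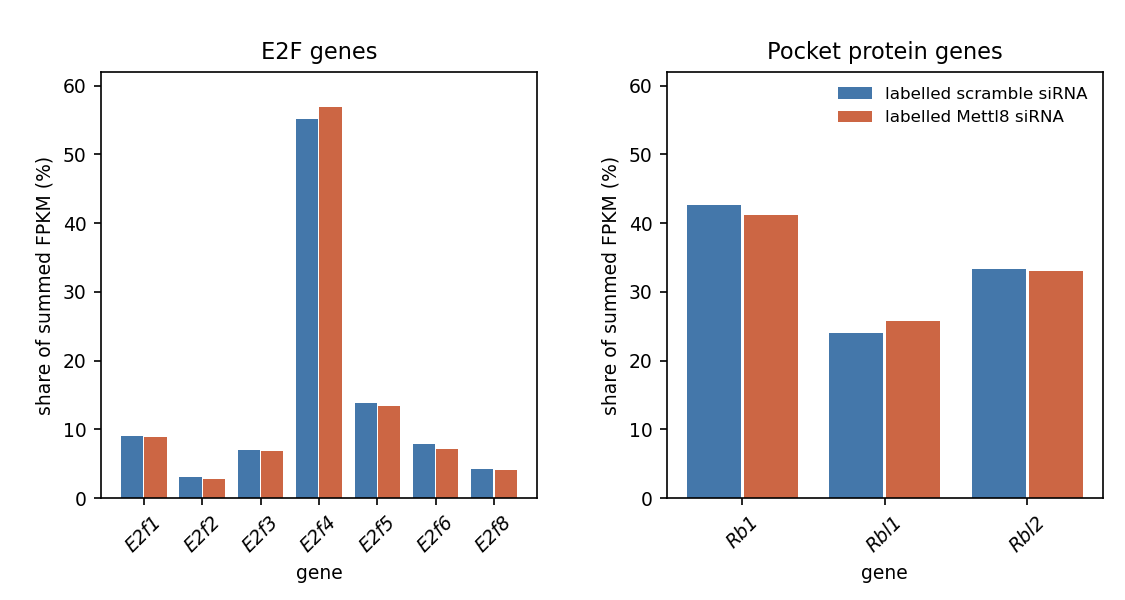
Share of each gene in the summed FPKM of the 7 E2F genes (left) and of the 3 pocket protein genes (right), in percent, for the libraries labelled scramble siRNA (blue) and Mettl8 siRNA (orange). E2f4 takes 55.2% and 56.9% of the E2F sum, and the shares of the other genes differ little between the libraries.

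The order of the 10 levels was the same in both libraries: E2f4, E2f5, E2f1, E2f6, E2f3, E2f8, Rb1, E2f2, Rbl2 and Rbl1. FPKM is per length, so these levels can be set against each other. The places of E2f6, E2f3, Rb1 and Rbl2 also rest on the gene models described below, which counting error does not cover. Of the 9 pairs of neighbours, E2f6 and E2f3 could not be separated by counting error in either library, at ratios of 1.11 (0.995 to 1.25) and 1.04 (0.930 to 1.17). E2f2 and Rbl2 could not be separated in the library labelled scramble siRNA (1.10, 0.964 to 1.26), nor Rb1 and E2f2 in the other (1.06, 0.924 to 1.22). The lowest gene, Rbl1, ranked 8527 and 8513 among protein-coding genes.

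Ratios between 2 genes of 1 library do not depend on how the libraries are scaled. Of 14 such ratios, picked with the levels known, 12 had overlapping intervals in the 2 libraries. The share among other pairs of genes was not computed, so this count shows nothing particular to these genes. E2f4 exceeded Rb1 15.6-fold (14.3 to 17.1) in the library labelled scramble siRNA and 19.4-fold (17.6 to 21.3) in the library labelled Mettl8 siRNA. E2f4 exceeded Rbl2 19.9-fold and 24.1-fold, with intervals that did not overlap either. These 2 pairs join the gene that was highest in the second library relative to the first with the 2 that were lowest. The 7 E2F genes together exceeded the 3 pocket protein genes 12.1-fold and 14.0-fold.

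**Figure D4:**
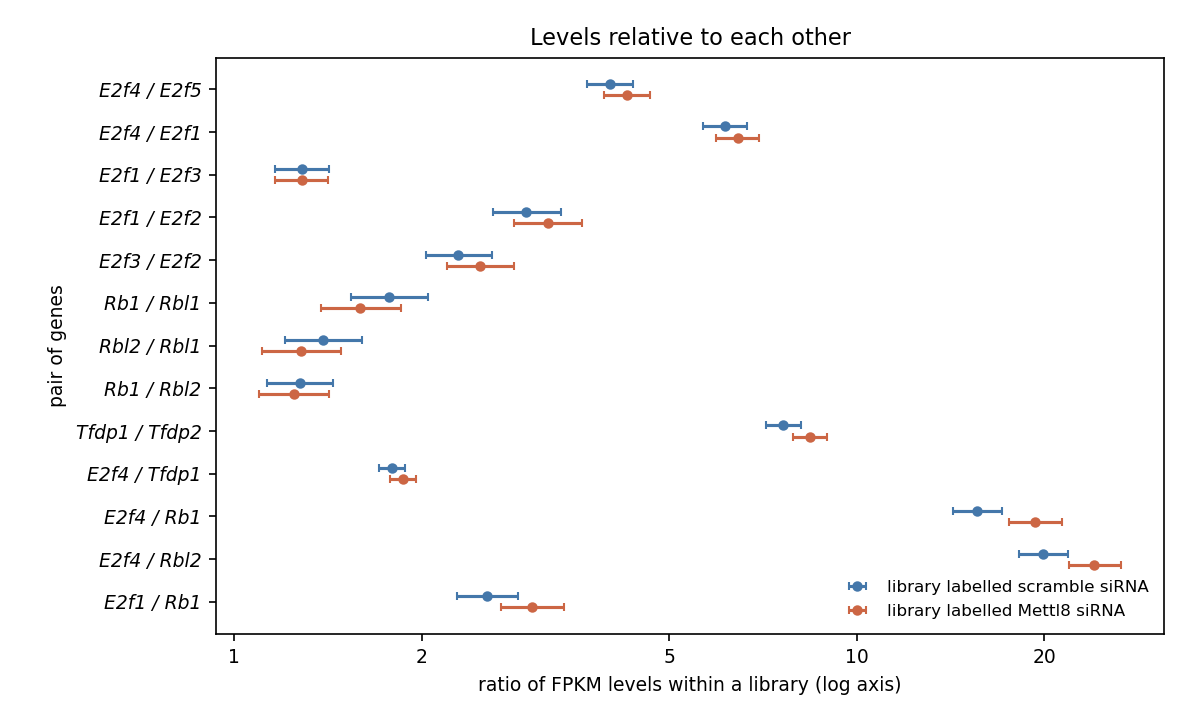
Ratio of the FPKM levels of 2 genes within 1 library, on a log axis, for the libraries labelled scramble siRNA (blue) and Mettl8 siRNA (orange), with exact 95% intervals of counting error. The ratio of E2f8 to E2f7 is left out, and the intervals of E2f4 over Rb1 (15.6 and 19.4) and of E2f4 over Rbl2 (19.9 and 24.1) do not overlap.

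The gene models touch these values. The deposited length equals the exon union of GENCODE M21 for 8 of the 10 genes. For E2f6 it is 2421 bases against 5663, and for E2f3 4794 against 5429, so the levels of these 2 rest on a shorter model. Exons of 4 genes overlap exons of a neighbour on the opposite strand, and with the strand setting unknown these reads cannot be told apart. Exons of Rb1 (chr14:73183673-73325822, minus strand) share 408 bases with Lpar6 and 488 with Rcbtb2, of its 6015. Exons of Rbl2 (chr8:91070057-91123844, plus strand) share 693 bases with Aktip and 892 with Gm45464, of 7558. E2f8 shares 610 bases with Gm2788, which was 0.62 and 0.58 FPKM, and E2f5 shares 26 with 1810022K09Rik. E2f4 (chr8:105297663-105305370, plus strand) and E2f1 (chr2:154559407-154569892, minus strand) overlap no other gene of that annotation.

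Promoter sequence from RefSeq (GRCm38.p6, 250 bases before to 50 after each start) was found for 7 of the 10 genes, with 9 starts. E2f1 is represented by a start 466 bases inside its GENCODE gene. E2F sites were searched as TTTCCCGC, TTTCGCGC, TTTGCCGC and TTTGGCGC on both strands. Of all 32851 promoters 2.26% held a match, and of the 9 starts 3 did, in E2f2, E2f3 and Rbl1. The matches are shown because E2F genes are known as targets of E2F proteins, with the match in capitals, 5′ to 3′ on the gene's strand.
E2f2: gcggcatatagTTTGGCGCtaa
E2f3: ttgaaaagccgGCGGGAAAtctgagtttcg
Rbl1: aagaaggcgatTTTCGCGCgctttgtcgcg
They lie at chr4:136172302-136172323 (plus strand), chr13:29986056-29986085 (minus strand) and chr2:157204534-157204563 (minus strand). The E2f3 and Rbl1 matches begin 11 and 18 bases before the start. That of E2f2 begins 39 bases after its RefSeq start, which lies upstream of the GENCODE gene. The 3 genes with a match differed by -0.03, 0.07 and -0.01 on the log2(FPKM + 1) scale, within the range of the others. A match describes letters only and shows no binding.

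The DP partners, without which E2F1 to E2F6 bind DNA poorly, were unequal. Tfdp1, the gene of DP1, was 27.8 FPKM (26.8 to 28.9) and 29.5 FPKM (28.5 to 30.6), a ratio of 1.06 (1.01 to 1.12), or 1.04 (0.990 to 1.10, which includes 1) with the median ratio set to 1. Tfdp2 was 3.65 and 3.51 FPKM, and Tfdp1 exceeded it 7.62-fold (7.16 to 8.12) and 8.41-fold (7.89 to 8.97). The 2 genes summed to 0.364 and 0.355 of the summed level of E2f1 to E2f6. The only E2F gene above Tfdp1 was E2f4, by 1.79-fold (1.71 to 1.88) and 1.87-fold (1.78 to 1.96).

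The cyclins and kinases that phosphorylate pocket proteins were listed together with the phosphatase gene Cdc25a. These genes were mostly higher in the library labelled Mettl8 siRNA. Of the 9 listed, 8 stood higher and 1, Cdc25a, lower, where 54.1% of all genes stood higher and 45% lower. The median log2 difference of the 9 was 0.099 against 0.013 over all genes. The intervals of 5 lay above 1 and that of 1 below, while 13.8% of protein-coding genes lay above and 8.76% below. Ccnd2, a D cyclin, was 1.18 and 1.78 FPKM (ratio 1.51, 1.31 to 1.75), and Ccnd1 was 10.41 and 13.02 FPKM (1.25, 1.16 to 1.34). The kinase gene Cdk6 was 2.05 and 2.50 FPKM (1.22, 1.11 to 1.34), and Cdk4 was 64.3 and 69.0 FPKM. Ccne1, the gene of cyclin E1 and an E2F target, was 42.8 and 48.3 FPKM (1.13, 1.08 to 1.18). Cdc25a, a phosphatase that activates Cdk2, was 8.94 and 8.32 FPKM (0.931, 0.874 to 0.992), an interval that included 1 with equal FPKM sums (0.932 to 1.06). The intervals of Ccnd1, Ccnd2, Cdk4, Cdk6 and Ccne1 lay above 1 under both rescalings too. Ccne2, Ccnd3 and Cdk2 had intervals that included 1.

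The CDK inhibitors, which keep pocket proteins unphosphorylated, had no common direction. Of 7 listed, 6 were measured, 3 higher and 3 lower, with a median of 0.031, where 54.1% of all genes stood higher and 45% lower. The interval lay below 1 for 1 of the 6, Cdkn1a, against 8.76% of protein-coding genes. Cdkn1a, the gene of p21, was 13.2 and 11.1 FPKM (ratio 0.841, 0.760 to 0.932). Cdkn2a was 4.38 and 3.40 FPKM (0.776, 0.602 to 1.00, an interval that includes 1). Cdkn1c, Cdkn2b, Cdkn2d and Cdkn1b were between 1.46 and 4.15 FPKM with intervals that included 1, and Cdkn2c was below 1 FPKM.

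The other members of pocket protein and E2F6 complexes were present in both libraries. For comparison, 54.1% of all genes stood higher and 45% lower. Intervals lay above 1 for 13.8% of protein-coding genes and below 1 for 8.76%. With the median ratio set to 1, 900 protein-coding genes lay above and 1259 below, in place of 1374 and 873, and the lists were not counted at that scaling. The MuvB core joins E2F4, DP1 and p130 or p107 in the DREAM complex of resting cells, and joins the product of Mybl2 (B-MYB) and FOXM1 in dividing cells. Among these 8 genes, 5 stood higher and 3 lower (median difference 0.068, or -0.011 among genes with a mean of at least 5 FPKM), with Rbbp4 (31.4 and 33.0 FPKM) as the 1 gene with an interval above 1. Mybl2 was 78.5 and 77.9 FPKM, against 2.57 and 2.73 for the core gene Lin9, 6.09 and 5.98 for Lin54, 5.95 and 6.53 for Lin37 and 4.36 and 4.76 for Lin52. Foxm1 was 7.36 and 7.23 FPKM and Mybl1, a relative of Mybl2, 4.61 and 5.01 FPKM. Of 14 genes of PRC1.6, 11 stood higher and 3 lower (median 0.071), with intervals above 1 for 6 and below 1 for 0. Among these 6, the lower bound was 1.04 for Cbx1 but 1.01 for Cbx3, Rnf2 and Tfdp1. The interval of Tfdp1 included 1 with the median ratio set to 1 (0.990 to 1.10). The largest differences were in the heterochromatin protein genes Cbx1 (30.3 and 32.9 FPKM) and Cbx3 (7.21 and 7.89) and in Rnf2 (19.0 and 20.4). Ring1, which stood lower, was 1.14 and 1.01 FPKM. Of 14 chromatin regulators known to bind RB, 9 stood higher and 5 lower (median 0.054), with intervals above 1 for 3 and below 1 for 1. Among them the Polycomb gene Ezh2, itself an E2F target, was 12.7 and 15.2 FPKM (ratio 1.19, 1.13 to 1.26), and the corepressor gene Sin3a was 27.0 and 24.6 FPKM (0.914, 0.874 to 0.955, or 0.932 to 1.02 with equal FPKM sums). Suv39h1 was 3.96 and 4.43 FPKM and Kdm5a 7.13 and 7.69 FPKM.

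The genes known as targets of E2F proteins were all expressed in the proliferation classes. Of 43 G1/S genes, all 43 were measured, 29 higher and 14 lower, with a median of 0.053. Over all genes 54.1% stood higher. Their intervals lay above 1 for 16 and below 1 for 3, against 13.8% and 8.76% of protein-coding genes. Several of these 16 had a lower bound close to 1. With the median ratio set to 1, 900 protein-coding genes lay above and 1259 below, in place of 1374 and 873. The G1/S list was not counted at that scaling, where Rpa2, Fen1 and Brca1 stayed above 1. Rpa2, a subunit of the single-strand DNA-binding protein RPA, was 21.8 and 26.3 FPKM (ratio 1.21, 1.13 to 1.28). The flap nuclease gene Fen1 was 22.5 and 25.7 FPKM (1.14, 1.06 to 1.22), and Brca1 was 8.92 and 10.1 FPKM (1.13, 1.07 to 1.20). Promoters were found for 33 of these genes, and 14 of the 33 (42.4%) held an E2F match, against 2.61% of all 27025 genes with a promoter. The 14 genes with a match had a median of 0.026 and the 19 without had 0.11.

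Of 38 G2/M genes, which DREAM represses in resting cells, all 38 were measured, 24 higher and 14 lower, with a median of 0.018, close to the 0.013 of all genes and -0.0071 with the median ratio set to 1. Over all genes 54.1% stood higher and 45% lower. Their intervals lay above 1 for 9 and below 1 for 1, against 13.8% and 8.76% of protein-coding genes. Several of these 9 had a lower bound close to 1. With the median ratio set to 1, 900 protein-coding genes lay above and 1259 below, in place of 1374 and 873. The G2/M list was not counted at that scaling, where Kif11 and Mad2l1 stayed above 1, so its 9 against 1 holds for the deposited scaling only. Kif11, a spindle motor gene, was 25.3 and 29.3 FPKM (ratio 1.16, 1.11 to 1.21), and the checkpoint gene Mad2l1 was 10.6 and 12.2 FPKM (1.15, 1.09 to 1.21). Dlgap5 was 11.4 and 12.7 FPKM and Ckap2 16.7 and 18.5 FPKM. The CHR element bound by MuvB, searched as TTTGAA on both strands, was in the promoter of 23 of 33 of these genes (69.7%) against 20.2% of all genes, while the E2F match was in 1 of the 33.

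The remaining target classes were the germline and the apoptosis genes. Of 17 germline genes known as targets of E2F6 and PRC1.6, 11 were measured, at mean levels from 1.01 to 18.9 FPKM, so not all were silent. Of these, 6 stood higher, 4 lower and 1 equal, where 54.1% of all genes stood higher. Their median was 0.011, near that of all genes, and no interval excluded 1. Ddx4 was 2.38 and 2.71 FPKM, Dazl 2.70 and 2.98, Sohlh2 7 and 6.31, and Meioc 1.49 and 1.28. Of 11 apoptosis genes known as E2F1 targets, 9 were measured, of which 8 were lower and 1 higher, with a median of -0.11. Over all genes 45% stood lower, and the median of the list was -0.017 with equal FPKM sums. Their intervals lay below 1 for 3, against 8.76% of protein-coding genes. Bbc3, the gene of PUMA and also a p53 target, was 7.39 and 6.01 FPKM (ratio 0.813, 0.705 to 0.936), and Bcl2l11, the gene of BIM, was 4.05 and 3.60 FPKM (0.889, 0.808 to 0.979, or 0.862 to 1.04 with equal FPKM sums). Ppp1r13b was 1.27 and 1.00 FPKM, with an interval that included 1. Several lists share genes, among them Ccne1, Cdc25a, Mybl2 and Tfdp1, and were chosen with earlier results known, so their counts are not independent of each other.

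**Figure D5:**
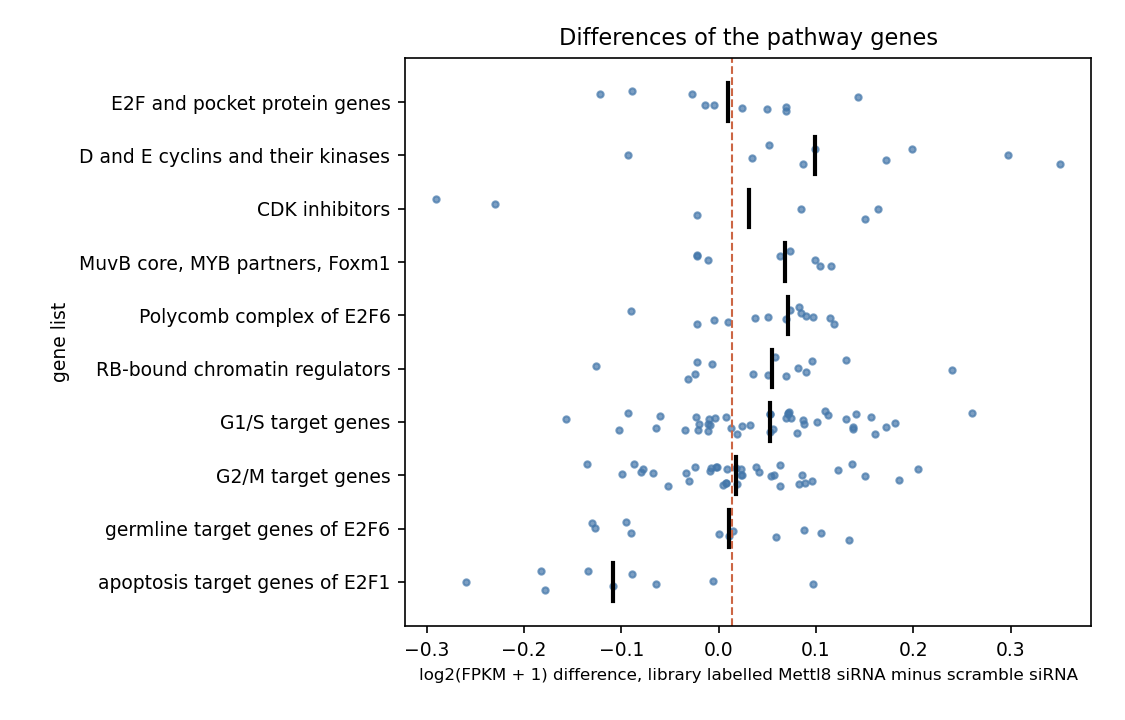
Difference in log2(FPKM + 1), library labelled Mettl8 siRNA minus library labelled scramble siRNA, for each measured gene (points, spread vertically at random) of the set and of 9 lists. Black bars are list medians and the dashed line is the median of all genes, 0.013. The medians run from -0.11 for the apoptosis genes to 0.099 for the D and E cyclins and their kinases, listed with Cdc25a.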

How the data were processed

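RNA sequencing libraries of E14 cells were compared by transcript level, 1 library per group. The deposited table gives FPKM (fragments normalised by gene length and library size, rounded to 2 decimals by the authors) and a length in bases for 50508 genes. STAR 2.4.0i, featureCounts 1.5.0-p1 and the mm10 build are named in the submitters' processing notes; annotation and strand setting: not given in the sources used here.

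Reads per gene were rebuilt from FPKM, length and the step between low values. Among genes under 400 bases with fewer than 30 reads, 100% of 3120 and 3563 values were whole within rounding plus 0.005 reads. The denominators were 28.5 and 27.8 M reads (M, 10 to the power 6), of which genes of the table held 22.2 and 21.4 M. For a level the 95% interval is exact Poisson and for a ratio Clopper-Pearson. Both cover counting error only and leave out the spread between cultures. PCR copies of a molecule count as separate reads, so both intervals can be too narrow even for counting error.

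Differences were taken on the log2(FPKM + 1) scale as Mettl8 label minus scramble label, so a change at a low level comes out too small. The 13243 genes that averaged 1 FPKM or more were counted, and 2-fold was a fixed rule of size. A single library per group allows no test between groups, hence no p-value. Promoters are RefSeq's (GRCm38.p6); positions, coding sequence and gene type are from GENCODE M21 on GRCm38, the assembly of mm10. The genes and lists were chosen with earlier results of these data known. Named genes are those of the E2F and pocket protein set, their partners, up to 4 genes with the largest differences of each list and, where wanted, any gene of a list of 9 or fewer, except a gene that is not reported here. Calculations used Python 3.11.15, numpy 2.4.6, pandas 2.3.3 and scipy 1.17.1. The steps were tested on simulated data. The alternatives were another pseudocount, filter, fold and scaling.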

Additional observations from a re-analysis of the deposited data

How the results depend on the processing

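No paired analysis was possible because each group holds 1 library. None of the 10 genes passed 2-fold under any pseudocount, filter or scaling tried, nor 1.5-fold on the log2(FPKM + 1) scale. The 85 genes of the table at least 2-fold apart became 176 with a pseudocount of 0.1, 164 without a filter, 5 at a mean FPKM of at least 5, 280 at 1.5-fold and 2 among protein-coding genes. Rescaling both libraries to equal FPKM sums gave all genes a median of 0.089 in place of 0.013. Under it the medians were 0.083 for the E2F and pocket protein genes, 0.148 for MuvB, 0.150 for PRC1.6, 0.136 for the RB-bound regulators, 0.145 for G1/S and 0.107 for G2/M genes, -0.017 for apoptosis genes in place of -0.11 and 0.044 for the pluripotent markers in place of -0.048, E2f2, E2f6 and Rbl1 changed sign (0.041, 0.068 and 0.055), and the E2f4 difference was 0.24. The intervals of E2f1, E2f3 and E2f4 then lay above 1, as did those of 3643 protein-coding genes in place of 1374, and 214 lay below in place of 873. With the median ratio set to 1, the medians were -0.0071 for G2/M, -0.010 for the E2F and pocket protein genes and -0.014 for the germline genes, the interval of Rb1 lay below 1, and 900 protein-coding genes lay above and 1259 below. Counting only genes that averaged 5 FPKM or more gave medians of 0.069 for the E2F and pocket protein genes, -0.011 for MuvB and -0.090 for the germline genes, and left Cdkn1a (-0.23) alone among the CDK inhibitors. The counts of intervals under other scalings, and the limit of list medians to lists with at least 5 measured genes, were chosen after seeing the data. Intervals of the lists were not counted under other scalings. Depth limits the interval of the lowest gene, Rbl1, with 307 and 298 reads, to 0.844 to 1.17.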
